A study of Drosophila melanogaster with 2 samples.

Results

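The 10 autophagy core genes Atg1, Atg2, Atg5, Atg6, Atg7, Atg9, Atg13, Atg16, Atg17 and Atg18a were examined among 13968 protein-coding genes of Drosophila melanogaster for binding of the transcription factor Irbp18 (also called CG6272). They were listed by gene symbol, and this list was chosen by measured values, namely earlier binding results (peak positions and signal values) of the same data, so their binding counts describe them and are given without a test. Chromatin immunoprecipitation followed by sequencing had been done on 2 biological replicates of 1 group, transgenic flies of the strain CG6272-GFP whose Irbp18 is fused to enhanced green fluorescent protein (eGFP), collected as whole embryos 0 to 24 h old. The labels' description gives an antibody against GFP, while their antibody field names CG6272. The labels give no treatment and no second genotype, and a control library was not analysed here. The libraries mix all embryonic ages in that range and all cell types, so binding in few cells and weak binding in many cells cannot be told apart. The deposited peak lists give for each peak a summit, a signal value (the authors' peak height, in a scaling not given in the sources used here) and the irreproducible discovery rate (IDR), a measure of how poorly a peak recurs between sets of reads. The conservative list pooled from both replicates, described first throughout, held 3454 peaks, and 3426 of them lay on the chromosome arms. The thresholded list of replicate 1 held 2773 peaks, that of replicate 2 held 2023, and a second pooled list held 3598, all at an IDR of at most 0.01.

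Autophagy encloses part of the cytoplasm in a double membrane, the autophagosome, and delivers it to lysosomes. A kinase complex starts the process, lipid transfer proteins and a phosphoinositide kinase complex build the membrane, and a ubiquitin-like conjugation system attaches Atg8 proteins to it. In Drosophila, autophagy is best known from the starved larval fat body and from tissues that are removed at metamorphosis. Irbp18 is a basic leucine zipper protein of the C/EBP type, and the stress-responsive protein Xrp1 is among its known partners.

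Of the 10 genes, 6 had a summit of the conservative list within 500 bp of an annotated transcription start, beside 16.8% of all protein-coding genes (2343 genes). These were Atg2, Atg5, Atg7, Atg9, Atg17 and Atg18a. The same 6 of 10 had a summit inside the gene or within 2 kb of it, beside 29.9% of all protein-coding genes. In the second pooled list 7 of 10 had a summit within 500 bp of a start, beside 18.0%, with Atg6 in addition. Replicate 1 alone gave 7 of 10 beside 15.4%, with Atg13 in addition, and replicate 2 alone gave 5 of 10 beside 11.0%, without Atg5. Atg1 and Atg16 had no thresholded peak in or within 2 kb of them in any of the 4 lists. Because the genes were listed with binding results in view, nothing is read from the distance between these counts and the background.

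**Figure D1:**
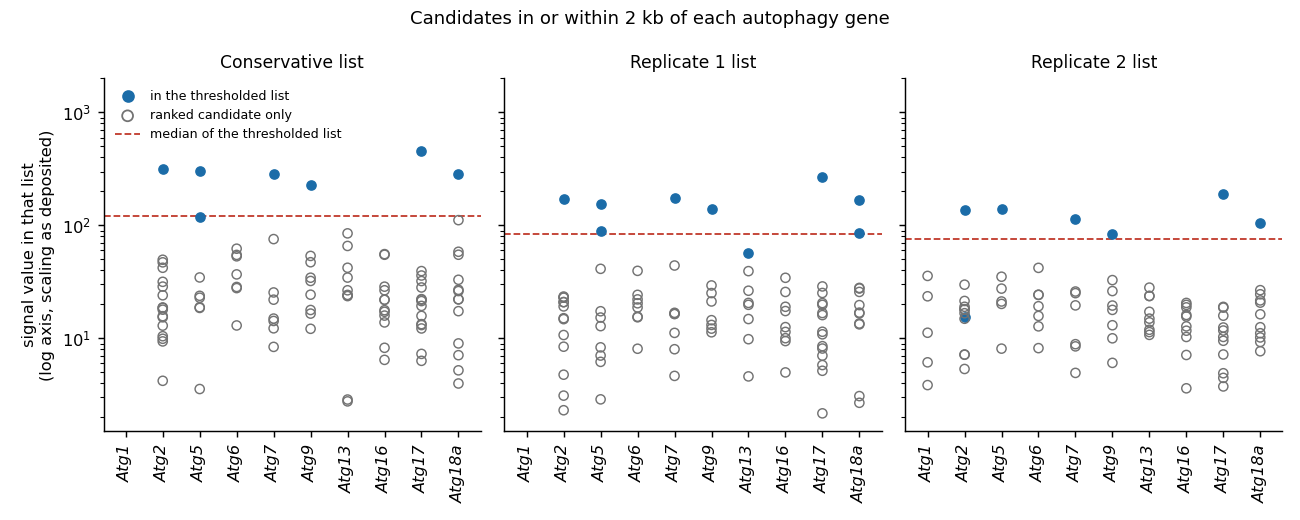
Signal values (log axis) of all candidate peaks in or within 2 kb of each gene, in the conservative list and in the list of each replicate, with filled points for peaks in the thresholded list, open points for ranked candidates only, and the median of the thresholded list as a dashed line. The scaling of signal values is not stated, so heights are not compared between panels; 6 of the 7 filled points of the conservative list lie above its median of 121.

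The 6 bound genes carried 7 conservative sites, 2 of them at Atg5. Their signal values ran from 118 to 453, and 6 of the 7 were above the median of the list, which was 121. All 7 summits lay upstream of the start and none lay inside the gene. Among the 1899 conservative summits within 500 bp of any start, 79.1% were upstream, with a median position 77 bp upstream.

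**Figure D2:**
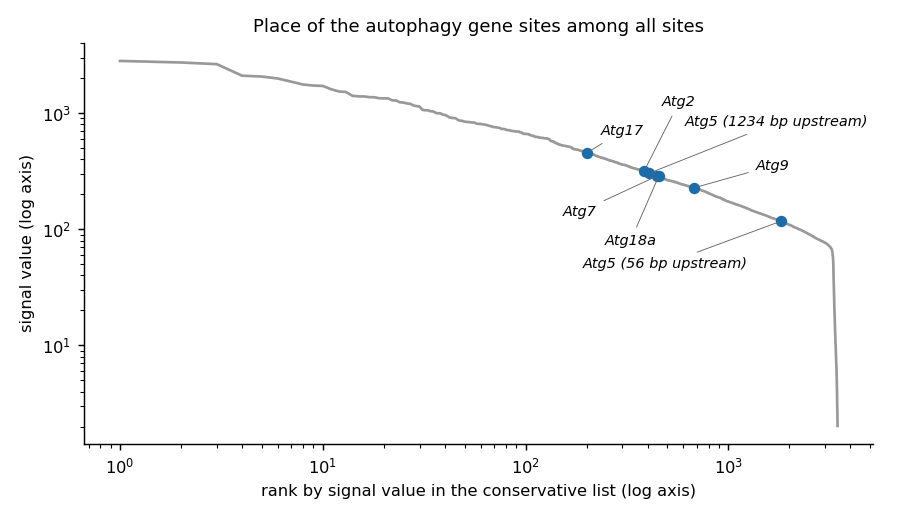
Signal value against rank (both log axes) for all sites of the conservative list on the chromosome arms (grey line), with the 7 sites of the autophagy genes as points. The sites of Atg17, Atg2, Atg7, Atg18a and Atg9 and the far site of Atg5 hold ranks 200 to 677, and the site at the start of Atg5 holds rank 1824.

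In the initiation complex, the scaffold subunit Atg17 (the fly counterpart of FIP200) had the strongest site of the 10 genes. Atg17 (FBgn0037363) lies on chromosome 3R at 5669713-5679930 (dm6, plus strand). Its summit was 239 bp upstream of the start, between genes, in a peak 362 bp wide with a signal value of 453. This placed the site at rank 200, in the top 5.79% of the list, at an IDR of 1e-05, the lowest value the list gives and one that 299 sites share. Replicate 1 listed the site at rank 197 with a signal value of 269, and replicate 2 at rank 205 with 190. The 2 replicate summits were 11 bp apart. Xe7, the divergent neighbour, starts 379 bp from Atg17, and its start was the nearer one at 140 bp. The 101 bases centred on this summit, the strongest of the set, are given from the release 6 reference sequence at 3R:5669424-5669524 in the direction of Atg17. None of 13 motifs searched had a match in them, so all letters are in lower case.
Atg17 site: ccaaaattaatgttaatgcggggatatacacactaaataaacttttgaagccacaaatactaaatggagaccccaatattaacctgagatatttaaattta

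The kinase itself, Atg1 (FBgn0260945, 3L:12784429-12805116, minus strand), stood at the other end of the range. Neither pooled list and not replicate 1 held any candidate, at any IDR, in the gene or within 2 kb of it. Replicate 2 held 5 candidates there, and the highest, with a signal value of 35.7 and an IDR of 0.214, lay in a coding exon 18678 bp from the start. The stretch around the Atg1 start without a conservative candidate was 25.3 kb long. There were 318 such stretches of this length or more on the arms, covering 11.4% of them, and 10.6% of protein-coding genes likewise had no conservative candidate within 2 kb. In replicate 2, whose 5 candidates lay inside the conservative stretch, a shorter stretch of 20.7 kb around the start held none. The lists do not show whether stretches without a candidate lack reads or were left out of peak calling. The nearest conservative site was 108674 bp from the gene.

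Atg13 is the regulatory subunit that binds Atg1. Atg13 (FBgn0261108, 3R:8349815-8352817, plus strand) passed the threshold in replicate 1 only. There its summit was 45 bp upstream of the start, at rank 2387 with a signal value of 56.6 and an IDR of 0.00473. Replicate 2 had a candidate 62 bp upstream with a signal value of 23.7 and an IDR of 0.871. Both pooled lists placed the candidate 42 bp upstream with a signal value of 85.0, at an IDR of 0.0559 in the conservative list and 0.0226 in the second pooled list. Another conservative candidate, 1778 bp from the gene, had a lower signal value of 65.8. Its IDR was also lower, below 0.05, but it did not pass the threshold. A conservative site with a signal value of 331 lay 2950 bp beyond the gene, nearest to the start of stck. The window 3R:8349723-8349823 of the candidate near the Atg13 start held TATCGATA (the DRE, the element bound by Dref), shown in capitals, 40 to 47 bp downstream of the summit.
Atg13 candidate: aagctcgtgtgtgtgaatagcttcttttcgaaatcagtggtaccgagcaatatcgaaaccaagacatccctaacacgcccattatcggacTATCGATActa

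Among the genes for membrane growth, Atg2 and Atg18a had sites of nearly equal rank. Atg2 is a lipid transfer protein, and Atg18a is a WIPI-type protein that binds phosphoinositides and works together with it. Atg2 (FBgn0044452, 3L:2774338-2780677, plus strand) had a summit 230 bp upstream, with a signal value of 316, rank 384 and an IDR of 1.96e-05. Replicate 1 gave the Atg2 site a signal value of 172 at rank 425, and replicate 2 gave 138 at rank 355, with summits 9 bp apart. CG12093 starts 331 bp from Atg2 in the opposite direction and its start was nearer to the summit, at 101 bp. Replicate 2 also listed a second Atg2 peak 14 bp upstream of the start, with a signal value of only 15.5 at rank 1978 but an IDR of 1e-05. This peak, at 3L:2774164-2774483, overlapped the stronger replicate 2 peak at 3L:2773963-2774282, so the lists do not show it as a separate site.

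Atg18a (FBgn0035850, 3L:8186857-8191118, plus strand) had its summit 49 bp upstream, with a signal value of 285, rank 453 and an IDR of 3.74e-05. The Atg18a site had a signal value of 169 at rank 437 in replicate 1 and of 104 at rank 587 in replicate 2, and the replicate summits were 37 bp apart. ERR, which encodes the estrogen-related receptor, starts 186 bp away in the opposite direction, and its start was 137 bp from the summit. A second peak lay in an intron of ERR, 1030 bp upstream of Atg18a, with a signal value of 111. It passed the threshold in the second pooled list (IDR 0.00131) and, 959 bp upstream, in replicate 1 (signal value 85.3, IDR 0.000437), but had an IDR of 0.187 in the conservative list.

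The Atg2 window is shown because it was among the most AT-rich of all sites. GC content in the 101 bases around the summit (3L:2774058-2774158) was 19.8%, a level reached or undercut by 2.92% of all conservative sites. The window had no match to the motifs searched.
Atg2 site: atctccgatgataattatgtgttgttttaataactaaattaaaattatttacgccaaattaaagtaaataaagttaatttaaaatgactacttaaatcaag

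Atg6, the fly Beclin 1 and a subunit of the Vps34 lipid kinase complex, lay at the threshold. Atg6 (FBgn0264325, 3R:24049180-24050782, minus strand) starts 1 bp from the oppositely directed Pisd, the gene for phosphatidylserine decarboxylase. A summit 173 bp upstream of Atg6, in the 5' UTR of Pisd, had a signal value of 62.2 in both pooled lists. The second pooled list kept it at rank 3431 with an IDR of 0.00897, just inside the threshold, whereas its IDR in the conservative list was 0.596. In the single replicates it was a candidate only, with a signal value of 20.4 and an IDR of 0.724 in replicate 1 and, 200 bp upstream, a signal value of 42.1 and an IDR of 0.0108 in replicate 2. This window, 3R:24050905-24051005, had a GC content of 50.5% and is shown as a contrast to that of Atg2. Its capitals are TTACCAAA, which fits the relaxed C/EBP pattern TTACNNAA, and CTCTC, the reverse strand of GAGAG.
Atg6 candidate: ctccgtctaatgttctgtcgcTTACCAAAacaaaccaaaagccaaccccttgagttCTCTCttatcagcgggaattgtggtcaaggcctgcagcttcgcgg

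In the conjugation system, Atg5 was the only one of the 10 genes with a pair of conservative sites. Atg5 joins Atg12 to form the conjugate that works with Atg16. Atg5 (FBgn0029943, X:7314622-7323770, minus strand) lies within the gene CG1677, and both of its sites were in introns of CG1677 and of lncRNA:CR44357. The stronger site was 1234 bp upstream of Atg5 in an intron of Dok, 790 bp from the Dok start, with a signal value of 303, rank 406 and an IDR of 2.36e-05. It had a signal value of 156 at rank 503 in replicate 1 and 139 at rank 348 in replicate 2, with summits 6 bp apart. The weaker site, 56 bp upstream of the Atg5 start, had a signal value of 118, rank 1824 and an IDR of 0.00232. Replicate 1 listed it at rank 1259 with a signal value of 88.8. In replicate 2 it was a candidate at rank 3892 with a signal value of 35.2 and an IDR of 0.359, so the site at the start of Atg5 was not in both replicate lists. The sequences of both sites are set together, since they differed in recurrence and in base composition. GC content was 24.8% at the far site (X:7324954-7325054) and 38.6% at the start site (X:7323776-7323876), and neither window held a match.
Atg5 far site: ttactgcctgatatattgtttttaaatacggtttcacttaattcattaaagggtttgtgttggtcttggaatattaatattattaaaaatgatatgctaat
Atg5 start site: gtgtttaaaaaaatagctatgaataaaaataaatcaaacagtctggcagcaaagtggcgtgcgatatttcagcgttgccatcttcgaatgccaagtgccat

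Atg16 (FBgn0039705, 3R:29827281-29835101, minus strand), which anchors the Atg12 and Atg5 conjugate on the membrane, had 12 conservative candidates and none in a thresholded list. The highest lay 3 bp downstream of a start, in its 5' UTR, with a signal value of 55.7 and an IDR of 0.236. Near that start, replicate 1 had a candidate with a signal value of 34.4 and an IDR of 0.833, and replicate 2 one with 18.8 and 0.479. An intronic candidate of Atg16 was nearly as high, with a signal value of 55.0 and an IDR of 0.205. Its start window, 3R:29835048-29835148, is included as that of a gene without a site, and held CAGCTG, an E-box, 41 to 46 bp downstream of the summit.
Atg16 candidate: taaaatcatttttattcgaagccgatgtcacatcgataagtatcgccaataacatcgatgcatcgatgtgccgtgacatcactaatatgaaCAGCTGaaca

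Atg7, the E1-type enzyme that activates Atg12 and Atg8 proteins, had a site almost midway between a pair of divergent starts. Atg7 (FBgn0034366, 2R:18620466-18625044, minus strand) and Sec6, which encodes an exocyst subunit, start 205 bp apart, and the summit was 103 bp from Atg7 and 102 bp from Sec6. Its signal value was 287, at rank 445 and an IDR of 2.79e-05. In replicate 1 the Atg7 site had a signal value of 174 at rank 416, and in replicate 2 it had 114 at rank 490, with summits 32 bp apart. A candidate in a coding exon of Atg7 lay just outside the threshold, with a signal value of 75.7 and an IDR of 0.0258 in the conservative list.

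Atg9, the transmembrane lipid scramblase that travels on vesicles to the growing membrane, had the weakest of the best sites of the 6 bound genes. Atg9 (FBgn0034110, 2R:16294400-16297232, plus strand) had its summit 119 bp upstream, with a signal value of 227, rank 677 and an IDR of 0.000105. The start of CG7747, 270 bp from that of Atg9 in the opposite direction, was 151 bp from the summit. Replicate 1 placed the Atg9 site 185 bp upstream with a signal value of 140 at rank 619. Replicate 2 placed it 87 bp upstream with a signal value of 83.9 at rank 859. These 2 summits were 98 bp apart, beside a median of 16 bp (quartiles 6 and 36 bp) over the 1632 sites that both replicate lists hold within 100 bp.

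**Figure D3:**
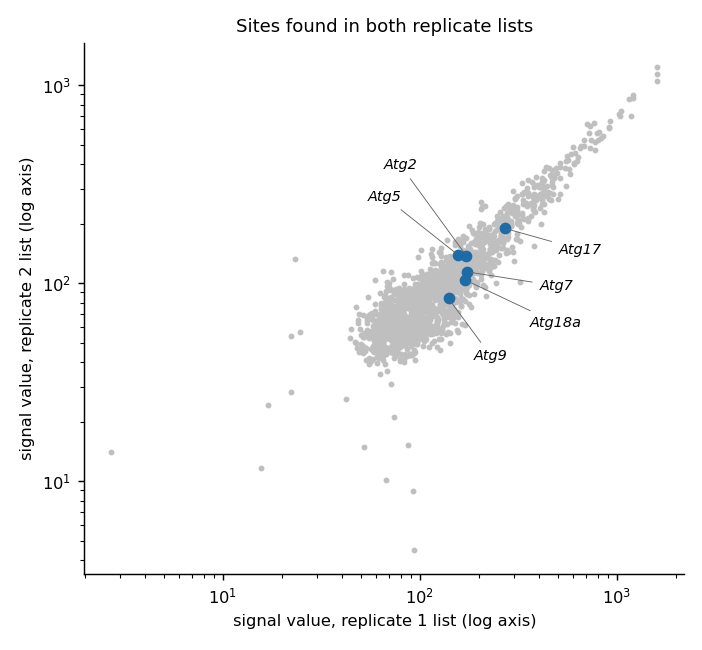
Signal values in the list of replicate 2 against those in the list of replicate 1 (both log axes) for sites with summits within 100 bp of each other in both lists (grey), with the best sites of the 6 bound autophagy genes in blue. For Atg5 the point is the far site, 1234 bp upstream, as its start site is not in the list of replicate 2. Among the blue points, Atg17 is highest in both replicates, at 269 and 190, and Atg9 lowest, at 140 and 83.9.

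The strongest site of each of the 6 bound genes was in both replicate lists, with replicate summits within 100 bp of each other. For Atg5 this was the far site, 1234 bp upstream. The site at the Atg5 start, by which Atg5 counts as bound, was in the thresholded list of replicate 1 but not of replicate 2. Among the strongest sites, Atg17 was first and Atg9 last in both replicates. Atg2, Atg5, Atg7 and Atg18a lay close together, from 156 to 174 in replicate 1 and from 104 to 139 in replicate 2. Their order was not the same in both, Atg7 being the highest of the 4 in replicate 1 and Atg5 in replicate 2. With 1 value per replicate, no error could be given for a single site.

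For 7 of the 10 genes, another protein-coding gene starts within 500 bp in the opposite direction, beside 26.4% of all protein-coding genes and 53.9% of all those with a conservative site within 500 bp of a start. Of the 7, 6 had a conservative site, beside 34.3% of all 3686 protein-coding genes so arranged. The 3 others, Atg1, Atg13 and Atg16, had none, beside 10.5% of all protein-coding genes without such a neighbour. The seventh head-to-head gene was Atg6. For the sites at Atg2, Atg7 and Atg17 the start of the neighbour was nearer than that of the autophagy gene, by 1 bp in the case of Atg7. The far site of Atg5 was likewise nearer to the start of Dok, at 790 bp, than to that of Atg5, at 1234 bp. Counting each summit only for its nearest protein-coding start left 3 of the 10 genes, Atg5, Atg9 and Atg18a, beside 12.2% of all protein-coding genes. Which of the paired genes, if either, responds to the binding cannot be read from peak positions.

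**Figure D4:**
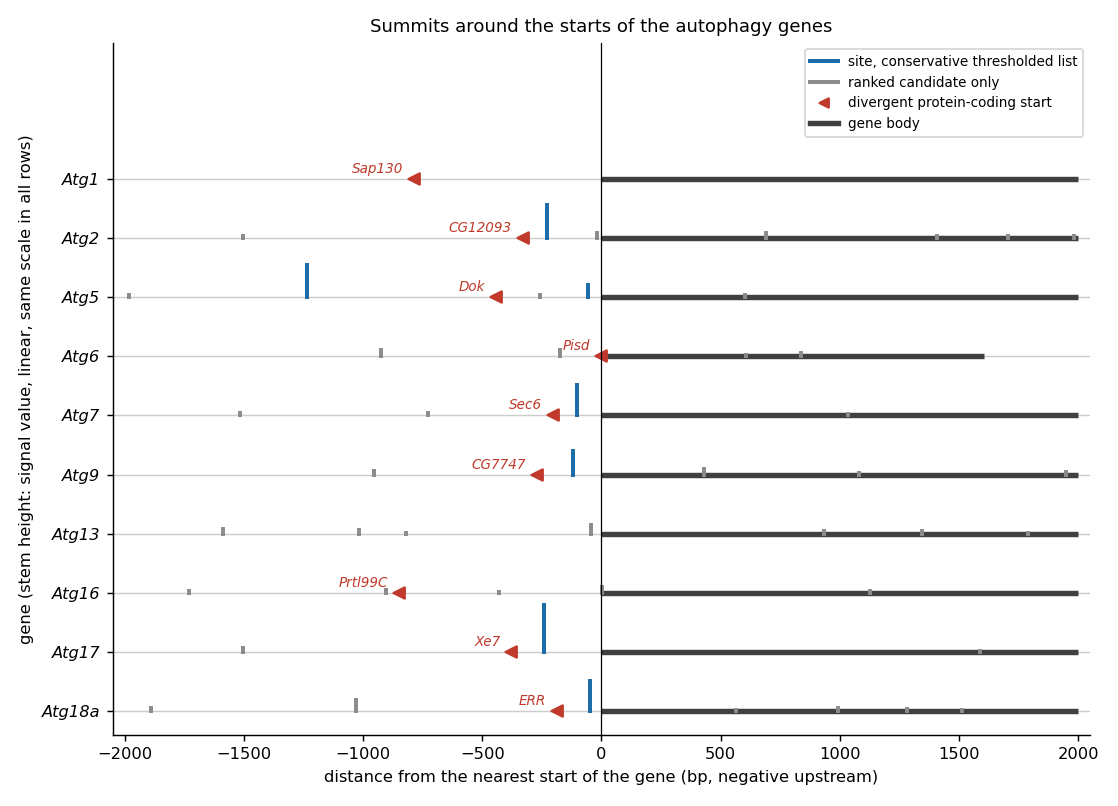
Conservative candidates within 2000 bp of the nearest start of each gene, drawn as stems whose height is the signal value on one linear scale, with the starts of divergent protein-coding neighbours as red triangles and gene bodies as dark bars. The sites of Atg2, Atg7, Atg9, Atg17 and Atg18a lie between the start of the gene and that of its neighbour, and Atg1 has no candidate.

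Candidates that did not pass the threshold were spread over all genes but Atg1. The conservative ranked list held 100 candidates in or within 2 kb of the 10 genes, of which 93 were not in the thresholded list. With the thresholded peaks included, the density of candidates in the other 9 genes ran from 0.608 per kb at Atg5 to 1.69 per kb at Atg18a, beside a median of 1.18 per kb (quartiles 0.821 and 1.44) over all protein-coding genes. The median signal value of the 93 was 22.2, and the highest was the ERR intron peak at 111. At an IDR of at most 0.05, 8 of the 10 genes had a conservative candidate within 2 kb, beside 39.5% of all protein-coding genes. Atg6 and Atg13 were added, by candidates other than those near their starts. Within 500 bp of a start the count stayed at 6, beside 21.1%. At the edge of the 2 kb limit, the outermost candidate counted for Atg5 lay 1983 bp away with a signal value of 18.9, and the first one left out for Atg7 lay 2092 bp away with 16.8. Over all genes, the outermost candidates counted had signal values from 4.21 at Atg2 to 65.8 at Atg13, 1778 bp away. The first ones left out had values from 6.74 at Atg2 to 35.5 at Atg1, 2189 bp away.

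The sites of the bound genes were AT-rich. In 101 bp around the summit, GC content ran from 18.8% to 38.6% over the 7 sites with a median of 24.8%, and 6 of the 7 were below the median of all 3426 conservative sites, which was 36.6% (quartiles 29.7% and 46.5%). Over the 674 sites at least as strong as that of Atg9 the median was 29.7% (quartiles 24.8% and 35.6%), and windows 500 bp from the summits had a median of 43.6%. Atg7 had 18.8% and Atg9 27.7%, beside 29.7% for Atg17. The longest unbroken run of A and T was 13 to 21 bp at the 7 sites, against a median of 9 bp (quartiles 7 and 12 bp) over all sites and of 11 bp (quartiles 8.25 and 15 bp) over the 674 stronger ones. It was 4 bp at the Atg6 candidate, 5 bp at that of Atg13 and 9 bp at that of Atg16, whose GC contents were 50.5%, 43.6% and 38.6%. The dip was narrow at Atg18a and Atg7, whereas the lowest values near the Atg5 start and at the Atg13 candidate lay to one side of the summit, upstream of it. The lowest value was also upstream at Atg9, with 16.8% at 50 bp. The same held for the candidates of Atg6, with 23.8% at 175 bp, and of Atg16, with 24.8% at 75 and 200 bp. At Atg2 and Atg17 it lay 25 bp downstream, with 17.8% and 23.8%.

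**Figure D5:**
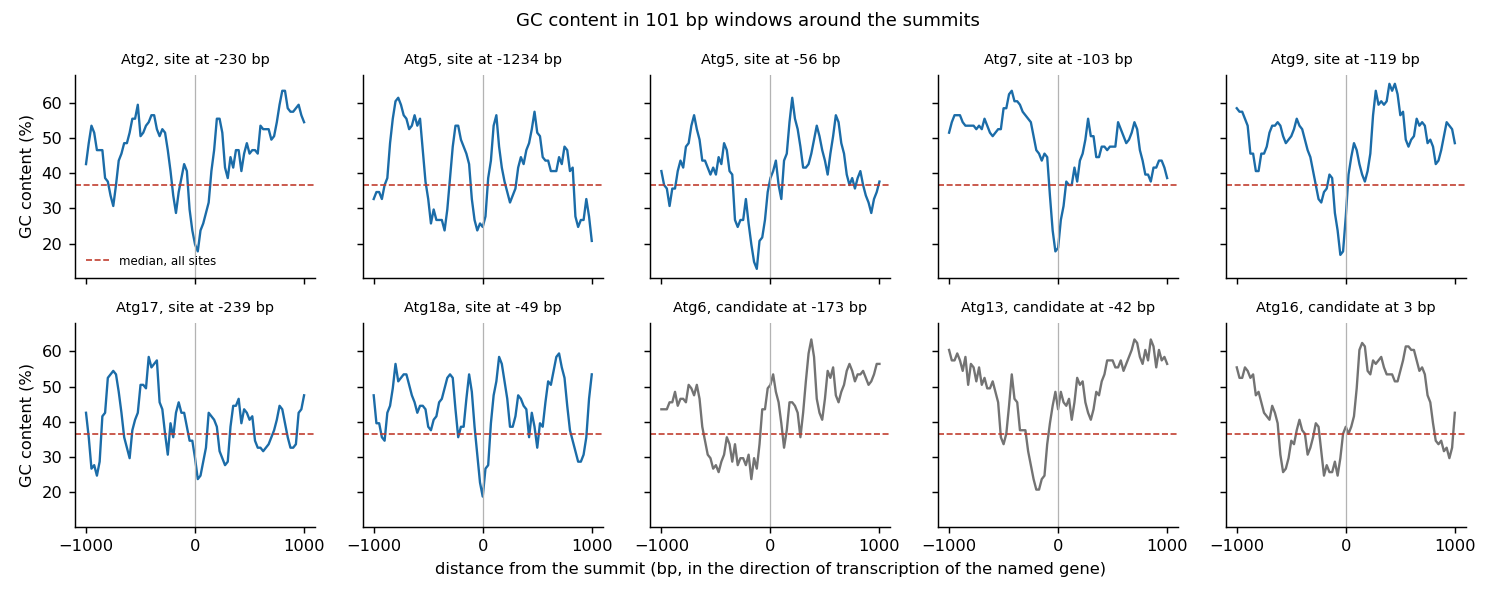
GC content (%) in 101 bp windows against distance from the summit (bp, in the direction of transcription of the named gene) for the 7 conservative sites (blue) and the best candidates of Atg6, Atg13 and Atg16 (grey), with the median of all conservative sites, 36.6%, as a dashed line. At Atg2, Atg7 and Atg18a GC content at the summit is 19.8%, 18.8% and 18.8%.

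The share of these summits with a motif match nearby was close to that of all conservative sites. Both strands were searched for exact letters, up to 50 bp from a summit, and 3 of the 7 windows held a match to any of the 13 motifs, beside 46.9% of all conservative sites. The relaxed C/EBP pattern (TTGCNNAA or TTACNNAA) was found at 2 of the 7, the sites of Atg18a and Atg7, beside 16.7% of all sites and 13.7% of windows 500 bp away. TATAAA, the letters of the TATA box, occurred at the Atg9 site on 2 occasions, beside 17.6% of all sites. The matches lay 28 to 23 bp and 13 to 8 bp upstream of the summit, which was itself 119 bp upstream of the Atg9 start. The CARE element of ATF4 (TGATGCAA or TGATGTAA) had no match at the 7 sites, beside 0.584% of all sites, and neither had the C/EBP palindrome TTGCGCAA (0.175%, contained in the relaxed pattern) or TTACGTAA (0.175%, likewise contained in it). There was no match to TATCGATA (3.47% of all sites), to CACGTG, the E-box bound by MITF and TFE proteins (1.05%), or to TGTTTAC, the FOXO motif (2.31%). The remaining 5 motifs also had none, namely the CRE (TGACGTCA, 0.117% of all sites), the AP-1 site (TGACTCA or else TGAGTCA, 0.934%), core promoter motif 1 (GGTCACACT, 0.759%), the GAGA element (GAGAG, 9.08%) and the E-box CAGCTG (3.97%). These shares are over letters only and do not bear on whether a factor was bound.

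Beyond the core genes, 40 other genes of the pathway were examined, from a list that was likewise drawn up with earlier results known; of these, 15 (37.5%) had a conservative site within 500 bp of a start, beside 16.8% of all protein-coding genes. Their signal values ran from 72.1 to 910 with a median of 126, and 8 of the 15 were in all 4 lists. Genes acting in the fusion of autophagosomes with lysosomes accounted for 7 of 12. Among them were Epg5, a tethering factor (signal value 244), the SNARE genes Snap29 (192), Syx17 (122) and Vamp7 (86.6), the HOPS tether genes car (185) and Vps39 (98.8), and the small GTPase gene Rab7 (72.1). The membrane and phosphoinositide group had 3 of 7, which were Uvrag (135), Vps15 (126) and Rubicon (87.4), members or regulators of the Vps34 complex. In the conjugation group 2 of 7 had a site, the protease gene Atg4b (195) and the ubiquitin-like Atg8a (83.3). The Atg4b summit was nearer to the start of Hibch, at 104 bp against 201 bp. Likewise the Vps39 summit was nearer to the start of eIF1A, at 81 bp against 138 bp. Of the cargo receptor and mitophagy group, 1 of 4 had a site, park (73.9), the fly Parkin. The initiation group held only Atg101, which had none. Of the 15 genes, Vamp7, Rab7, Rubicon and park were in neither replicate list. Syx17 and Vps39 were in that of replicate 1 only, and Atg8a in that of replicate 2 only. For the fusion group, replicate 1 alone gave 6 of 12, Vps16A among them, beside 15.4% of all protein-coding genes. Replicate 2 alone gave 3 of 12 beside 11.0%.

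Upstream regulators had 2 of 9, and these were the strongest sites of the pathway. Sesn, the fly sestrin and an inhibitor of TORC1 signalling, had a signal value of 910 at rank 43, from a summit equally far from the start of CG46429. REPTOR, a bZIP factor that acts when TORC1 is low, had a signal value of 484 at rank 181. Both were above the strongest core gene site, that of Atg17. No conservative site lay within 500 bp of a start of foxo, Mitf, crc (the fly ATF4), raptor, AMPKalpha, Tsc1 or gig. However, Mitf lies on chromosome 4, on which the conservative list had 0 sites.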

How the data were processed

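Peak lists on dm6 from 2 biological replicates of 1 group were used as the authors deposited them, per the labels and the file columns. The signal value is the authors' own peak height, deposited with no stated scaling, and values were ranked and filtered only inside their own list. The deposited score is a whole number up to 1000, and the IDR was deposited by the authors as its negative decimal logarithm (−log10). The aligner and the peak caller were not given in the sources used here. No read counts are listed, so depth is unknown. Sonication was aimed at 200 to 800, per the labels, with no unit. The members, the wider list and the motifs were chosen with earlier results of these data known. Named genes were the 10 members, genes starting within 500 bp of their sites, and genes of the wider list with a conservative site. A few others, such as wider-list genes without a site and genes that hold or adjoin a peak, were named after their values were seen. Of its 41 symbols 40 were matched, all but Tor. Summits (start plus offset) were set against Ensembl BDGP6.54 (release 115) starts on 7 arms with Python 3.11.15, numpy 2.4.6 and pandas 2.3.3. Sequence came from the RefSeq release 6 genome, and that of the Atg18a site is not reported here. Counting was checked on planted sites. Alternatives covered list, threshold, distance, start assignment and window.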

Additional observations from a re-analysis of the deposited data

How the results depend on the processing

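Of 37 alternative values for the main counts, 32 stayed within 1.5 times. Giving each summit only to its nearest protein-coding start lowered the count of members bound within 500 bp of a start from 6 to 3 (all protein-coding genes, 16.8% to 12.2%), and of those bound within 2 kb of the gene from 6 to 3 (29.9% to 16.5%). With no flank, 0 members had a site inside the gene, beside 9.66% of all protein-coding genes. The wider list gave 9 to 11 genes in the single replicates against 15, while the share of all protein-coding genes was 15.4% in replicate 1 and 11.0% in replicate 2 against 16.8%. Motif searches within 100 bp of the summit gave matches at 6 sites against 3 within 50 bp. Matches also became more common over all conservative sites, for the relaxed C/EBP pattern from 16.7% within 50 bp to 29.0% within 100 bp. The share of all sites with any match within 100 bp is not given here, so nothing is read from the higher count. Of 50 other alternatives 38 counted as the same, 12 as moved and 0 as reversed. Start distances were judged by the spread between replicates, and motif counts by the limit of 1.5 times. A shift of the far Atg5 site from 1234 to 1244 bp upstream thus counted as moved. A start distance of 200 bp left 4 members, beside 12.4% of all protein-coding genes, and a summit distance of 50 bp between replicates left 5, without Atg9. Read depth is unknown, so no limit can be given for genes without a site. No paired analysis was possible because both replicates belong to 1 group.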
